A study of Mus musculus with 4 samples.

Results

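Fc receptors, Dectin-family lectins and their ITAM adaptors are the receptors with which myeloid cells sense antibody-coated material and the sugars and lipids of microbes and damaged cells, and 10 of their genes are described here. The genes are Fcgr1, Fcgr2b, Fcgr3, Fcgr4, Fcer1g, Tyrobp, Syk, Clec7a, Clec4d and Clec4e. They were listed by symbol because Clec7a was among the genes with the largest falls after tamoxifen in these same libraries, so their tamoxifen and vehicle values are given as a description with no test. All 10 were found among 22298 genes, and all 10 were among the 11633 genes tested, which reached 1 FPKM (fragments per kilobase of transcript, scaled to library depth) in at least 2 of 4 libraries.

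The study asked how tamoxifen, a selective estrogen receptor modulator, affects fatty liver disease in mice. The sequenced material was primary hepatocytes, labelled parenchymal cells, isolated from wild-type (WT) male C57BL/6 mice purchased at 8 weeks of age. All mice ate a methionine- and choline-deficient (MCD) diet for 6 weeks, which produces steatohepatitis, and were pair-fed. The vehicle group (2 libraries) received vehicle and the tamoxifen group (2 libraries) received tamoxifen at 100 mg/kg, dissolved in corn oil, by intraperitoneal injection on 5 consecutive days. Whether the libraries within a group came from separate mice is not labelled, so the p-values below measure only the spread between these libraries, which may be technical.

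Fc gamma receptors bind the constant part of IgG. In the mouse, Fcgr1, Fcgr3 and Fcgr4 encode activating receptors that signal through the common gamma chain encoded by Fcer1g, whereas Fcgr2b encodes the inhibitory receptor. Clec7a encodes Dectin-1, which binds beta-glucan of fungal walls. Clec4d (MCL) and Clec4e (Mincle) bind glycolipids and use the gamma chain. Tyrobp encodes DAP12, the adaptor of TREM2 and many other myeloid receptors. Once the tyrosines of an ITAM (immunoreceptor tyrosine-based activation motif) are phosphorylated, the kinase Syk binds them and passes the signal on, through CARD9 among others. In the liver these genes are known from Kupffer cells and recruited macrophages, and Fcgr2b also from the sinusoidal endothelium.

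The tyrosine motifs that give the adaptors and receptors their roles are shown as coding sequence, since Syk or inhibitory phosphatases dock there. They were read 5′ to 3′ from GENCODE M21 transcripts, with the codons for each tyrosine and for the leucine after it in capitals. The matches for Fcer1g and Tyrobp each have 11 codons from the first tyrosine to the next and span 45 bases. Clec7a carries a single tyrosine motif (a hemITAM), and the last line is the inhibitory motif (ITIM) of Fcgr2b.
Fcer1g, from codon 65: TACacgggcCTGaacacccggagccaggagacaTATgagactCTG
Tyrobp, from codon 92: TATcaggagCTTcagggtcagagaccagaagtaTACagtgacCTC
Clec7a, from codon 15: TATactcaaTTA
Fcgr2b, from codon 317: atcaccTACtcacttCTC

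Upstream sequence is shown as a description, and its part in the levels of the genes was not tested. RefSeq (GRCm38.p6) gave a promoter for 9 of the 10 genes, and Tyrobp had no entry. The letters AGAGGAA or their reverse complement TTCCTCT, a purine-rich run of the kind bound by the myeloid factor PU.1, occurred within 250 bases before to 50 bases after the start of 6 of the 9 (Fcgr1, Fcgr3, Fcgr4, Clec7a, Clec4d and Clec4e). Fcgr2b, Fcer1g and Syk had no match to these 7 letters. The 7 letters occurred in 11.9% of 27025 genes with a promoter and in 11.0% of 9224 such genes that were tested. The shorter run GGAA or TTCC within them occurred in 9 of the 9 and in 96.6% of the 9224. The 7 letters were chosen after the promoters had been read, so the count is a description. The lines run from 150 bases before to 30 bases after the start, with matches to the 7 letters in capitals, for 3 genes with the letters and for Fcgr2b.
Clec7a, chr6:129472750-129472929, minus strand: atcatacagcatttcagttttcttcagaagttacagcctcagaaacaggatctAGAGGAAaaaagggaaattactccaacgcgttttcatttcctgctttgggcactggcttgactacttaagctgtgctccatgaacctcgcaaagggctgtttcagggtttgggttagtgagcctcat
Clec4e, chr6:123289842-123290021, minus strand: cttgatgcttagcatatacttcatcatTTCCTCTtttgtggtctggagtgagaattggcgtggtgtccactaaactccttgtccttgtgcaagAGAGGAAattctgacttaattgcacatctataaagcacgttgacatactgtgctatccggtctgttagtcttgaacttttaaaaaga
Fcgr3, chr1:171059374-171059553, minus strand: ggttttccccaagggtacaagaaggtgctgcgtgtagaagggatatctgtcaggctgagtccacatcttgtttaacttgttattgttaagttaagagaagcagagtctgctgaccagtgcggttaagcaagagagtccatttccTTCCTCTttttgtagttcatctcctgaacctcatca
Fcgr2b, chr1:170976042-170976221, minus strand: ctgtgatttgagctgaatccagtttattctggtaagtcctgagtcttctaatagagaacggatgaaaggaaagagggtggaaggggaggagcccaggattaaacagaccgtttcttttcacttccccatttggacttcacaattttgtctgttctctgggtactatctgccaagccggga

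The estimated depth was 16700000 to 20700000 fragments per library. Hepatocyte markers were the most abundant of the marker lists in all 4 libraries, with Alb, which encodes albumin, between 26382 and 50399 FPKM. The 13 hepatocyte markers summed to 48184 and 36098 FPKM in vehicle and to 69250 and 65941 FPKM after tamoxifen. Their median log2 fold change was 0.76. By limma's test 6 of them were higher and 0 lower, beside 4.31% of all genes tested called higher. Markers of other cells were present as well. The 13 Kupffer cell and macrophage markers summed to 1151 and 2224 FPKM in vehicle and to 121 and 219 FPKM after tamoxifen. By limma's test 12 of them were lower, and none was at 0 in any library. Over all genes tested, 46.7% were called lower. The monocyte list summed to 637 and 1460 FPKM against 35.5 and 47.3 FPKM, and the 10 liver sinusoidal endothelial markers to 383 and 603 FPKM against 113 and 130.0 FPKM. The 9 stellate cell and fibroblast markers summed to 373 and 631 FPKM against 32.8 and 49.2 FPKM, and the dendritic cell list to 20.1 and 40.3 FPKM against 2.61 and 2.14 FPKM. The neutrophil list summed to 27.1 and 74.9 FPKM against 20.7 and 14.7 FPKM, and 2 of its 4 tested genes were called lower. Like these sums, other than that of the hepatocyte markers, the levels of the 10 genes were lower in both tamoxifen libraries. Within the tamoxifen group the macrophage sum was higher in tamoxifen 2, as were 8 of the 10 genes, but Clec7a and Clec4e were not. The part of the sums in the results below was not tested. In such bulk samples, fewer cells of a type and less RNA per cell cannot be told apart. Vehicle 2 also carried 916 FPKM of pancreatic acinar markers, against 7.87 to 39.9 FPKM in the other libraries.

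Clec7a had the highest level of the 10 genes in both vehicle libraries. Its level was 223 FPKM in vehicle 1, 432 FPKM in vehicle 2, and 7.98 FPKM in tamoxifen 1 and 7.83 FPKM in tamoxifen 2. The groups did not overlap, and the lowest vehicle value was 28 times the highest tamoxifen value. The means were 328 ± 148 and 7.91 ± 0.106 FPKM (SD, n = 2 libraries each), a ratio of 41.5. On the log2(FPKM + 1) scale used for all fold changes here, the change was -5.13 (standard error, SE, 0.31), rank 2 from the lowest of 11633 genes. Its place among the 10 genes went from rank 1 in both vehicle libraries to rank 4 in tamoxifen 1 and rank 5 in tamoxifen 2. The gene lies at chr6:129461591-129472779 on the minus strand (GRCm38).

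Clec4d and Clec4e had lower levels than Clec7a throughout. For Clec4d, vehicle 1 and vehicle 2 held 13.1 and 33.3 FPKM, and the tamoxifen libraries held 0.51 and 0.68 FPKM. Clec4e was at 10.3 and 31.6 FPKM in vehicle and at 0.39 and 0.24 FPKM in tamoxifen. Vehicle 2 was the highest library for both genes, and the groups did not overlap. The log2 fold changes were -3.78 (SE 0.40) for Clec4d and -3.87 (SE 0.45) for Clec4e. The tamoxifen values rest on an estimated 12 and 15 fragments for Clec4d and 17 and 10 for Clec4e and are loosely determined. The pseudocount of 1 makes these fold changes smaller than the ratios of the means, 38.9 for Clec4d and 66.5 for Clec4e. Both genes passed the filter on low values only through the vehicle libraries. Their summed FPKM stood in a similar ratio to that of Clec7a in all 4 libraries (0.105, 0.150, 0.113 and 0.118).

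**Figure D1:**
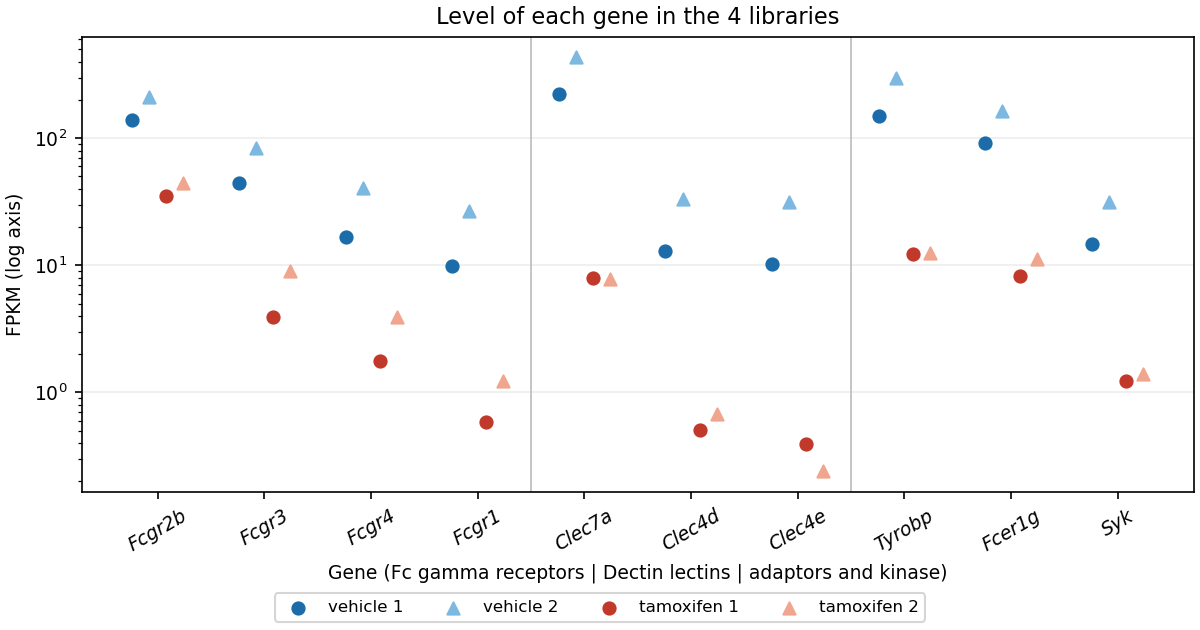
FPKM of each of the 10 genes (x axis) in each of the 4 libraries on a logarithmic y axis, with circles for replicate 1 and triangles for replicate 2 of each group. Both tamoxifen libraries sit below both vehicle libraries for every gene, and the gap between the groups is widest for the 3 lectins and narrowest for Fcgr2b.

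The adaptors were lower after tamoxifen as well. Tyrobp, encoding DAP12, measured 149.8 FPKM in vehicle 1 and 300.2 FPKM in vehicle 2, whereas tamoxifen 1 and 2 had 12.4 and 12.5 FPKM. Its vehicle libraries differed from each other 2.0-fold while its tamoxifen libraries were nearly equal. The ratio of the means was 18.1 (log2 change -3.99, SE 0.32). Fcer1g, the gamma chain shared by activating Fc receptors and by Clec4d and Clec4e, was at 92.4 and 165 FPKM in vehicle and at 8.28 and 11.2 FPKM in tamoxifen. The groups were again separate, with a ratio of means of 13.2 (log2 change -3.55, SE 0.30). Tyrobp was more abundant than Fcer1g in every library, by 1.62 and 1.82 times in vehicle and by 1.49 and 1.12 times in tamoxifen.

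Syk, the kinase that binds phosphorylated ITAMs, was at 14.8 and 31.5 FPKM in vehicle and at 1.24 and 1.40 FPKM in tamoxifen. Its groups did not overlap (log2 change -3.29, SE 0.34). The ratio of Fcer1g to Syk was 6.24 and 5.23 in vehicle and 6.68 and 7.99 in tamoxifen, so adaptor and kinase differed between the groups by similar factors. The ratio of Clec7a to Syk was 15.1 and 13.7 in vehicle and 6.44 and 5.59 in tamoxifen. The Dectin-1 transcript was lower relative to its kinase in both tamoxifen libraries. The large fall of Clec7a was the reason for listing the genes, so this ratio is a description.

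Among the Fc gamma receptors, the inhibitory Fcgr2b had the highest level in every library. It was at 139 and 209.6 FPKM in vehicle and at 34.9 and 44.5 FPKM in tamoxifen (log2 change -2.09, SE 0.26). The groups did not overlap, but the ratio of means, 4.39, was the smallest of the 10 genes. In the tamoxifen libraries Fcgr2b was the most abundant of all 10. The low-affinity activating receptor Fcgr3 was at 44.6 and 83.0 FPKM in vehicle and at 3.90 and 9.03 FPKM in tamoxifen (log2 change -3.14, SE 0.40). Its level in tamoxifen 2 was 2.32 times that in tamoxifen 1, and its lowest vehicle value was 4.94 times its highest tamoxifen value. Of all stretches of 50 bases, 11.4% in the Fcgr2b transcript and 12.8% in the Fcgr3 transcript occur in another gene, mostly in each other, so reads may have been split between these genes and both levels are uncertain to that extent. The other 8 genes share none. An antisense gene overlaps Fcgr2b in the annotation, and its reads cannot be told apart without strand.

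Fcgr4, which binds mouse IgG2a and IgG2b, was at 16.7 and 40.9 FPKM in vehicle and at 1.78 and 3.95 FPKM in tamoxifen (log2 change -2.87, SE 0.43). Fcgr1, the high-affinity receptor, was at 9.92 and 26.6 FPKM in vehicle and at 0.58 and 1.24 FPKM in tamoxifen (log2 change -3.21, SE 0.43). Vehicle 2 was the highest library for both and the groups did not overlap. The Fcgr1 values in tamoxifen rest on an estimated 27 and 54 fragments.

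The composition of the Fc gamma receptor transcripts differed between the groups. Summed FPKM of the activating receptors Fcgr1, Fcgr3 and Fcgr4 was 0.513 and 0.718 of that of Fcgr2b in vehicle and 0.179 and 0.319 in tamoxifen (means 0.615 ± 0.145 and 0.249 ± 0.099, SD, n = 2 libraries each). Fcgr2b made up 66.1% and 58.2% of the summed FPKM of the 4 receptors in vehicle and 84.8% and 75.8% in tamoxifen. The groups were separate, and the ratio differed 2.47-fold between the means. A ratio within a library does not depend on a scaling factor for the whole library, but quantile normalization can change it. Leaving out Fcgr3, which shares sequence with Fcgr2b, gave a 2.79-fold difference.

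**Figure D2:**
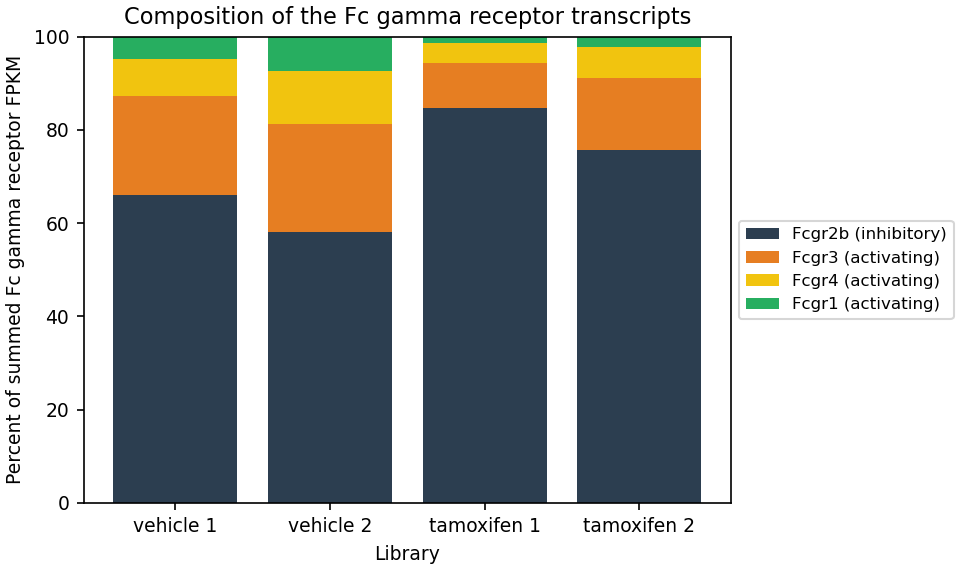
Share of each Fc gamma receptor gene in their summed FPKM (y axis, percent) in each of the 4 libraries. The inhibitory Fcgr2b takes 58.2% to 66.1% in the vehicle libraries and 75.8% to 84.8% in the tamoxifen libraries.

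All 10 genes had both tamoxifen libraries below both vehicle libraries, as did 71.9% of all genes tested (9.48% had both above). All 10 were also called lower by the test, as were 46.7% of all genes, and nothing is read from either count because the genes were chosen on this contrast. The median log2 fold change of the 10 genes was -3.42, beside a median of -0.60 over all genes tested. After rescaling by median ratios these medians were -2.91 and -0.11, and after quantile normalization -2.81 and 0.09. Of all calls, 91.6% were lower, against 67.8% after rescaling by median ratios and 50.5% after quantile normalization.

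Set beside cell type markers, the 10 genes took different places. The Kupffer cell and macrophage markers had a median log2 fold change of -3.02. Relative to that median, Fcgr1 (-0.18), Fcgr3 (-0.12), Fcgr4 (0.15) and Syk (-0.27) lay close to it. The side on which each lay, and how far, changed with the processing. The ranges were -0.93 to 0.24 for Fcgr1, -0.18 to 0.06 for Fcgr3 and -0.08 to 0.48 for Fcgr4. For Syk the range was -0.77 to 0.14. Clec7a differed from the macrophage median by -2.11 (-2.62 to -1.64 under other processing). Under any setting run, 0 of 13 macrophage markers had a larger fall. The filter changes, the sample weights and the replicate block leave these fold changes as they are, so they could not alter that count. Mmp12, which encodes macrophage elastase and is not on the marker list, fell by more than Clec7a (log2 change -5.46). The genes were listed because Clec7a was among the largest falls in these same libraries, so nothing is read from its place. Tyrobp differed by -0.96 (-1.45 to -0.52), with 0 of 13 markers showing a larger fall and at most 1 of 13 under other processing. The differences of the other lectins depended more on the processing. Clec4e differed by -0.85, with -2.31 at a pseudocount of 0.1 and -0.31 without tamoxifen 2 as the ends of its range. Clec4d differed by -0.76, from -1.76 at a pseudocount of 0.1 to -0.35 after quantile normalization. Fcer1g differed by -0.53, from -0.82 without tamoxifen 1 to -0.26 without tamoxifen 2. Fcgr2b differed by 0.94 (0.61 to 1.22), and 12 of 13 macrophage markers had larger falls. From the median of the sinusoidal endothelial markers (-1.91), Fcgr2b differed by -0.18, and 2 of 10 endothelial markers had larger falls (0 to 4 under other processing).

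**Figure D3:**
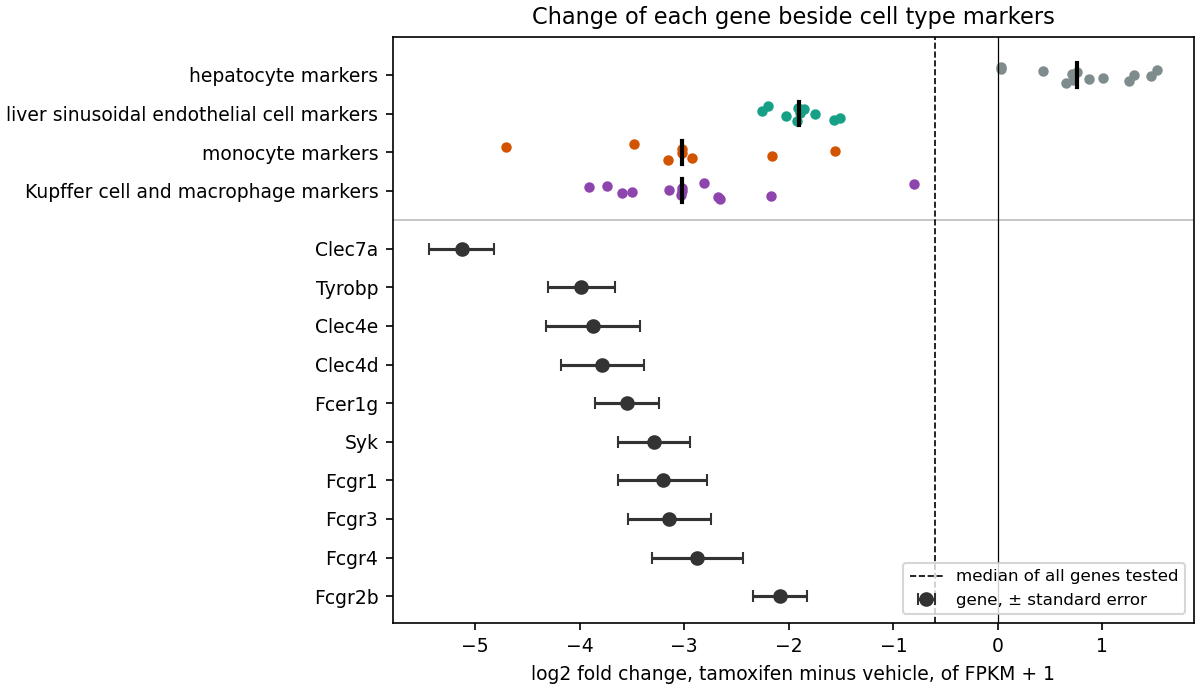
Log2 fold change (tamoxifen minus vehicle, of FPKM + 1) of the 10 genes with standard errors, below the values of single marker genes of 4 cell types, with a bar at each list's median and a dashed line at the median of all genes tested. Clec7a, at -5.13, lies left of all macrophage and monocyte markers plotted, and Fcgr2b, at -2.09, lies in the range of the endothelial markers. The large fall of Clec7a was the reason for listing the genes, so its place is a description.

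Ratios within a library, which no scaling factor for a whole library can move, were compared next. Clec7a stood at 1.86 and 1.79 times the FPKM of C1qa, a complement gene of macrophages, in vehicle and at 0.600 and 0.260 times in tamoxifen. Its ratio to Adgre1, which encodes F4/80, was 6.60 and 6.16 in vehicle and 3.47 and 1.60 in tamoxifen. As Clec7a was the reason for listing the genes, its ratios are a description. Against Adgre1, the ratio of Fcgr3 was 1.32 and 1.18 in vehicle and 1.70 and 1.85 in tamoxifen. Against C1qa it went the other way, with 0.372 and 0.344 in vehicle and 0.293 and 0.30 in tamoxifen. The ratio of Fcgr2b to Adgre1 was 4.10 and 2.99 in vehicle and 15.2 and 9.13 in tamoxifen. Fcgr2b was therefore the less reduced of the pair in both tamoxifen libraries. Against Stab2, a scavenger receptor of the sinusoidal endothelium, Fcgr2b stood at 3.46 and 3.76 times in vehicle and at 2.40 and 2.76 times in tamoxifen.

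The spread within a group also differed among the genes. Vehicle 2 exceeded vehicle 1 for all 10, by 0.59 to 1.53 in log2(FPKM + 1) (median 1.02). Over all genes tested the median difference was 0.20, and for the macrophage markers it was 0.96. Between the tamoxifen libraries the macrophage markers differed by a median of 0.83, with C1qa at 13.3 and 30.1 FPKM and Adgre1 at 2.30 and 4.88 FPKM. Fcgr3, Fcgr4 and Fcgr1 were likewise 2.14 to 2.32 times higher in tamoxifen 2. Clec7a (0.98 times), Tyrobp (1.01 times) and Syk (1.13 times) were nearly equal in the tamoxifen libraries, and Clec4e was lower in tamoxifen 2 (0.615 times). Fcer1g (1.35 times), Clec4d (1.33 times) and Fcgr2b (1.28 times) lay between. The tamoxifen values of Clec4e rest on an estimated 17 and 10 fragments and those of Clec4d on 12 and 15. With 1 library on each side, these differences have no replicate check.

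**Figure D4:**
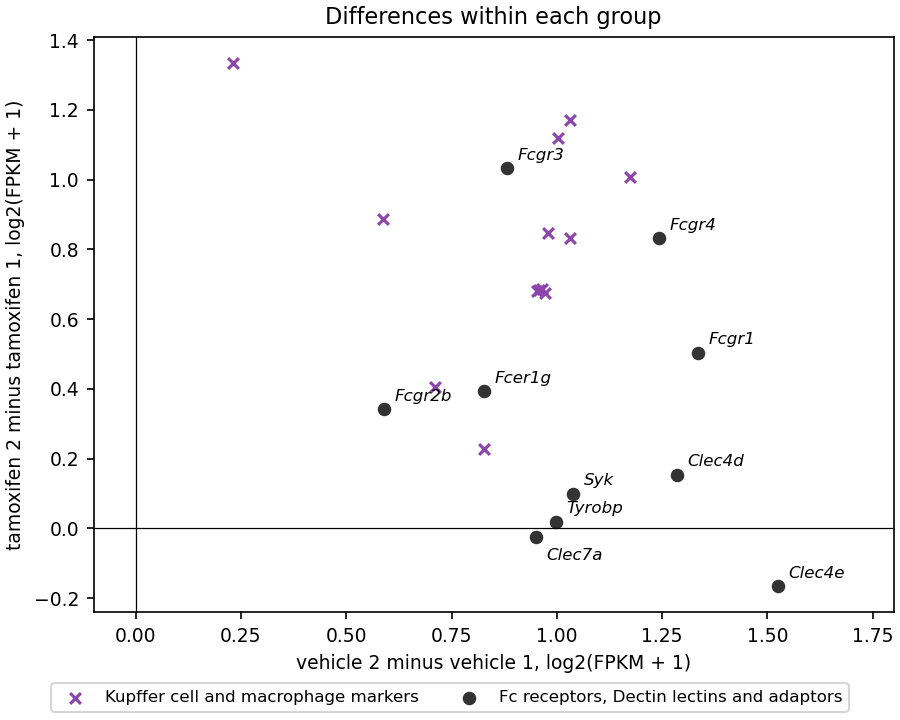
Difference between the vehicle libraries (x axis) and between the tamoxifen libraries (y axis), both in log2(FPKM + 1), for the 10 genes (dots, named) and the Kupffer cell and macrophage markers (crosses). All 10 genes lie right of 0, and on the y axis Fcgr3, Fcgr4 and Fcgr1 lie between 0.50 and 1.03 whereas Clec7a, Tyrobp and Syk lie between -0.02 and 0.10. Fcer1g, Fcgr2b and Clec4d lie between these sets.

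Most of the genes lie in clusters of the genome (GRCm38). On chromosome 1, Fcgr2b (170958617 to 170976547), Fcgr4 (171018920 to 171029761), Fcgr3 (171051174 to 171064935) and Fcer1g (171229572 to 171234365) follow each other, with 253 kb between Fcgr2b and Fcer1g.

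On chromosome 6, Clec4d (123262111 to 123275265) and Clec4e (123281789 to 123289870) lie 6.52 kb apart. Clec4n, encoding Dectin-2, lies 15090 bases from Clec4d and was lower (log2 change -3.55, SE 0.42, limma adjusted p = 0.00107). Near Clec7a, the lectin genes Clec1a (log2 change -1.3), Olr1 (-1.58) and Clec9a (-1.87) also passed the test, each having reached 1 FPKM only in the vehicle libraries. The call for Clec1a was lost in 3 of 10 alternatives (quantile normalization, no filter, and without tamoxifen 1), with limma adjusted p from 0.000838 to 0.258. On chromosome 7, Tyrobp (30413760 to 30417585) lies 127 bases from Hcst, which encodes the adaptor DAP10. Hcst fell by 1.3 (SE 0.33, limma adjusted p = 0.0148), from 1.31 and 3.21 FPKM to 0.13 and 0.41 FPKM. It too passed the filter on low values only through the vehicle libraries. Its call was lost under the same 3 of 10 alternatives, with limma adjusted p from 0.00146 to 0.362. Clec7a lies 6172 kb from Clec4e on chromosome 6. Tyrobp, Syk (chr13:52583173-52648792) and Fcgr1 (chr3:96282909-96293969) each share a chromosome with none of the other genes described here.

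Genes of the surrounding pathway were tested with limma across all 11633 genes, of which 46.7% passed in the lower and 4.31% in the higher direction (adjusted p under 0.05). A list of 31 genes held receptors that couple to ITAM adaptors, other than the 10 genes, and Hcst, whose product DAP10 carries no ITAM. All 17 that were tested were lower and 0 were higher (0 also at an unadjusted p under 0.05 from limma). Their median log2 fold change was -2.40, against -0.60 for all genes. Of these 17, 11 reached 1 FPKM only in the vehicle libraries, and a gene that passes in this way had to differ. The other 6 were lower as well. Trem2, the lipid receptor of macrophages that signals through DAP12, was at 36.0 and 70.8 FPKM in vehicle and at 1.65 and 2.21 FPKM in tamoxifen (log2 change -4.14, SE 0.32, limma adjusted p = 0.000488). Cd300c2, a myeloid receptor of the CD300 family, fell by 3.56 (SE 0.36, limma adjusted p = 0.000712).

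The other C-type lectins moved in both directions. Of 25 tested, 20 were lower, 2 higher and 3 did not pass (median -1.78), and 10 of the 25 reached 1 FPKM only in the vehicle libraries. Of the other 15, 10 were lower. Clec12a, an inhibitory lectin of myeloid cells, fell by 3.61 (SE 0.31, limma adjusted p = 0.000509), and Clec4a3 fell by 3.27. Cd302 rose from 72.5 and 74.7 FPKM to 181 and 199.7 FPKM (log2 change 1.36, SE 0.20, limma adjusted p = 0.0021). Asgr1, the asialoglycoprotein receptor of hepatocytes, was higher by a smaller amount (log2 change 0.71, SE 0.23, limma adjusted p = 0.0379). Asgr1 is also one of the 13 hepatocyte markers, whose log2 changes ran from 0.03 to 1.53, a range that holds that of Cd302. The relation of both rises to the hepatocyte markers was not tested. The call for Asgr1 was lost in 6 of 11 alternatives (quantile normalization, no filter, the stricter filter, and without vehicle 2, tamoxifen 1 or tamoxifen 2), with limma adjusted p from 0.00991 to 0.226.

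Of 50 genes of Syk and CARD9 signaling tested, 37 were lower, 1 was higher and 12 did not pass (median -1.52). Of the 50, 11 reached 1 FPKM only in the vehicle libraries, Card9 among them, and 26 of the other 39 were lower. The adaptors Lcp2 (SLP-76) and Fyb had log2 changes of -3.12 and -3.11 (limma adjusted p = 0.000943 and 0.00107). Card9, Bcl10 and Malt1, whose proteins form the complex that relays Dectin signals to NF-kappaB, had log2 fold changes of -1.57, -0.79 and -1.53 (limma adjusted p = 0.00275, 0.0417 and 0.0064). The call for Bcl10 was lost in 6 of 11 alternatives, with log2 changes of -0.24 after rescaling by median ratios and -0.19 after quantile normalization (limma adjusted p = 0.479 and 0.572, range 0.0084 to 0.572). The others were no filter and leaving out vehicle 2, tamoxifen 1 or tamoxifen 2. That for Malt1 was lost after quantile normalization (limma adjusted p = 0.0852, range 5.76e-05 to 0.0852). Grb2 and Rac1, which many cell types express and which had the highest levels of the list, were also lower (-1.93 and -1.22). Zap70, the Syk relative of T cells, was the only gene of the list called higher, at 0.86 and 1.58 FPKM in vehicle and 4.95 and 2.85 FPKM in tamoxifen (log2 fold change 1.13, limma adjusted p = 0.0179). Its call was lost in 3 of 10 alternatives (no filter, without vehicle 1 and without tamoxifen 1), with limma adjusted p from 0.00356 to 0.142. The T and NK cell markers summed to 7.98 and 34.1 FPKM in vehicle and 1.57 FPKM in each tamoxifen library.

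Inhibitory receptors and phosphatases were lower along with the activating genes. Of 26 tested, 25 were lower, 0 higher (0 at an unadjusted p under 0.05 from limma) and 1 did not pass (median -1.98). Of the 26, 10 reached 1 FPKM only in the vehicle libraries, and 15 of the other 16 were lower. Sirpa, the receptor for CD47, was at 72.8 and 140.3 FPKM in vehicle and at 5.01 and 5.45 FPKM in tamoxifen (log2 change -4.04, SE 0.31, limma adjusted p = 0.000476). Pirb, an inhibitory receptor for class I molecules, fell by 3.13. For Ceacam1, an adhesion receptor that hepatocytes also express, the log2 change was 0.53 (SE 0.27, limma adjusted p = 0.133). It was called higher after rescaling by median ratios and without vehicle 1 (log2 change 1.11 and 0.88, limma adjusted p = 0.0297 and 0.0308), and over all alternatives the adjusted p ran from 0.0297 to 0.534.

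**Figure D5:**
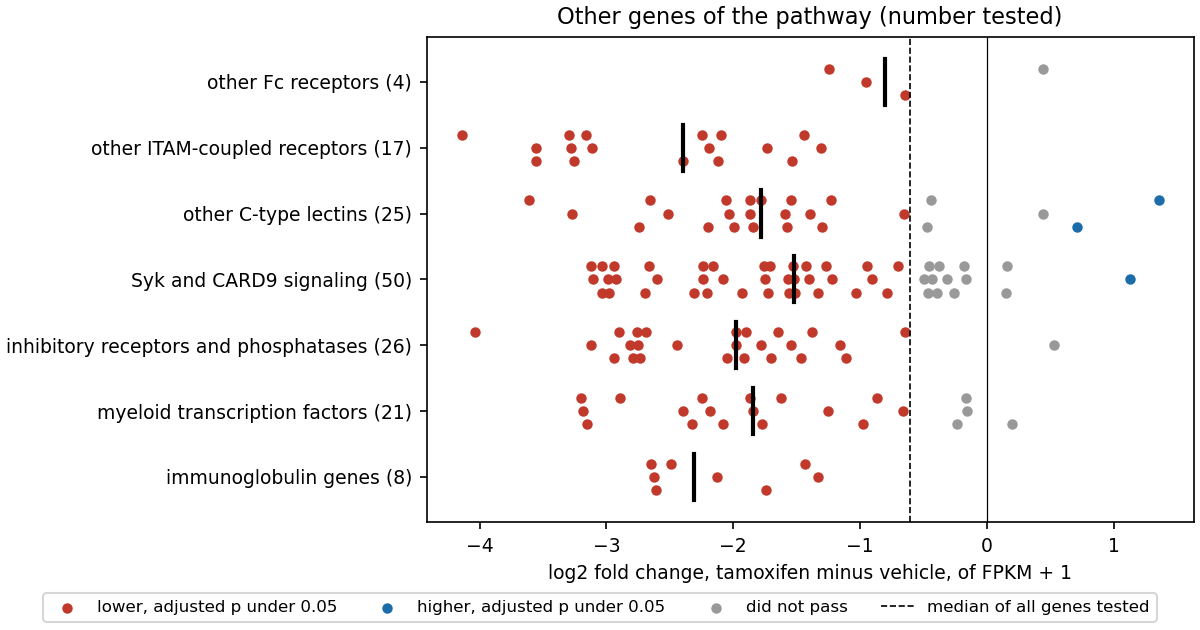
Log2 fold change (tamoxifen minus vehicle, of FPKM + 1) of every tested gene of 7 lists around the Fc receptors and Dectin lectins, coloured by the result of limma's test, with a bar at each list's median and a dashed line at the median of all genes tested. All 17 genes on the line for other ITAM-coupled receptors, which also holds Hcst, and all 8 immunoglobulin genes tested are lower, while the median of the other Fc receptors, -0.80, lies nearest to the dashed line.

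Fc receptors outside the Fc gamma family were nearer to the median of all genes. Of 14 listed, 4 were tested, 3 were lower and 0 higher (0 at an unadjusted p under 0.05 from limma), with a median of -0.80. Of the 4, 1 (Fcrl1) reached 1 FPKM only in the vehicle libraries. Fcgrt, the neonatal Fc receptor that recycles IgG and albumin, was at 80.4 and 95.7 FPKM in vehicle and at 60.04 and 51.95 FPKM in tamoxifen (log2 change -0.64, SE 0.21, limma adjusted p = 0.0364). Rescaling by median ratios brought it to -0.06. Its call was lost in 7 of 11 alternatives (both rescalings, both filter changes, and without vehicle 2, tamoxifen 1 or tamoxifen 2), with limma adjusted p from 0.0284 to 0.827. For Pigr, the epithelial transporter of IgA and IgM, the log2 change was 0.44 (SE 0.21, limma adjusted p = 0.112). Pigr was called higher after rescaling by median ratios (log2 change 1.03, limma adjusted p = 0.014), the lowest of a range that reached 0.379. Fcrl1, a receptor of B cells, fell by 1.24 (limma adjusted p = 0.00511) at levels of 1.61 and 1.93 FPKM in vehicle and 0.13 and 0.21 FPKM in tamoxifen, a call lost after quantile normalization (limma adjusted p = 0.238). Trim21, the cytosolic IgG receptor, fell by 0.96 (limma adjusted p = 0.036). This call was lost in 6 of 10 alternatives (both rescalings, no filter, and without vehicle 2, tamoxifen 1 or tamoxifen 2), with limma adjusted p from 0.00588 to 0.857. After quantile normalization 0 of the 4 were called lower by limma.

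The immunoglobulin genes, whose products are the ligands of the Fc receptors, were lower too. All 8 tested of 15 were lower and 0 higher (0 at an unadjusted p under 0.05 from limma), with a median of -2.31. Of the 8, 1 reached 1 FPKM only in the vehicle libraries. Igkc was at 30.3 and 56.3 FPKM in vehicle and at 6.29 and 6.75 FPKM in tamoxifen (log2 change -2.49, SE 0.30, limma adjusted p = 0.00109). Ighm, Igha and Ighg2c had log2 changes of -2.65, -2.13 and -2.63 (limma adjusted p = 0.000958, 0.00143 and 0.00606). For Ighg2c the adjusted p was 0.0503 after quantile normalization, and no other alternative lost the call. The 5 B cell markers listed summed to at most 4.24 FPKM in any library, and none of them passed the filter.

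Of the transcription factors that direct myeloid genes, 17 of 21 tested were lower, 0 higher (0 at an unadjusted p under 0.05 from limma) and 4 did not pass (median -1.84). Of the 21, 3 reached 1 FPKM only in the vehicle libraries, and 14 of the other 18 were lower. Zeb2 fell by 3.20 (SE 0.30, limma adjusted p = 0.000612) and Irf5 was lower by a similar amount (log2 change -3.19, SE 0.33, limma adjusted p = 0.000797). Spi1, which encodes PU.1, was at 23.2 and 52.3 FPKM in vehicle and at 2.54 and 3.63 FPKM in tamoxifen (log2 change -3.15, SE 0.37, limma adjusted p = 0.00102). Egr1 and Cebpb, which hepatocytes also express, had log2 fold changes of 0.20 and -0.16 and did not pass. Egr1 was called higher after rescaling by median ratios (log2 change 0.78, limma adjusted p = 0.031, with a range up to 0.898). The sign for Cebpb turned positive under either rescaling.

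The genes with the pattern most like that of Clec7a were sought over the 4 libraries by the Euclidean distance between centred log2(FPKM + 1) profiles. The nearest were Lgals3 (galectin-3, distance 0.299), Mmp12 (macrophage elastase, 0.333), Gpnmb (0.348), Lyz2 (lysozyme, 0.547) and Col3a1 (a fibrillar collagen, 0.569). Mmp12 was at 469 and 931 FPKM in vehicle and at 13.8 and 14.3 FPKM in tamoxifen, and Gpnmb at 518 and 848 FPKM against 23.7 and 19.4 FPKM. Both had, like Clec7a, a large gap between groups and close values in the tamoxifen libraries. The genes nearest to the mean profile of all 10 were Cd48 (distance 0.0524), Cxcr4 (0.0958), Anxa3 (0.115), Csf2ra (0.129) and Fxyd5 (0.137).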

How the data were processed

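RNA from primary hepatocytes (2 vehicle and 2 tamoxifen libraries) was poly(A)-selected and sequenced. The authors deposited 1 table of FPKM per library, with Ensembl gene identifiers and no counts. The submitters' processing notes name RSEM, HISAT2, Bowtie2, fastp 0.18.0 and StringTie 1.3.1 without their roles. The genome build, the annotation and whether reads were assigned by strand are each not given in the sources used here. Of the identifiers, 22255 had a symbol and 43 did not. Coordinates and transcripts came from GENCODE M21 (GRCm38) and promoters from RefSeq (GRCm38.p6). Low FPKM values times transcript length come in steps, whose spacing gave an estimate of each library's depth and of fragment numbers. The shallowest library had 80.7% of the fragments of the deepest.

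A linear model was fitted to log2(FPKM + 1) in limma 3.58.1 (R 4.3.3, eBayes with a trend, two-sided). Its p-values were adjusted by Benjamini-Hochberg over the 11633 genes that reached 1 FPKM in 2 of the 4 libraries. Calls are at an adjusted p under 0.05. With 2 libraries against 2, an exact permutation test of 1 gene cannot go below 0.333, so none was run. The 10 genes, the pathway lists and the marker lists were chosen with earlier results of these data known. In each pathway list the genes named are the 2 largest called falls and rises and the 2 of highest mean FPKM. Neighbours in the genome, Card9, Bcl10, Malt1 and Spi1 were named outside this rule, after their values were seen. Not every neighbour is reported here. Of 321 list entries, 320 matched a gene. A run on simulated data gave every gene the same spread and changed few genes, about equally in both directions. These data differ in each respect, so nothing is drawn from that run. Alternatives were rescaling by median ratios over genes above 1 FPKM in every library, quantile normalization, a pseudocount of 0.1, no filter, a stricter filter (mean of 5 FPKM), sample weights, the replicate number as a block and each library left out. Plots used matplotlib 3.10.9 under Python 3.11.15.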

Additional observations from a re-analysis of the deposited data

How the results depend on the processing

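Limits come from 2 libraries per group and from values already scaled by the authors. Of 30 fold changes of the 10 genes under both rescalings and the other pseudocount, 12 moved by more than the spread between replicates and 0 changed sign. Their median log2 fold change was -3.42, -2.81 after quantile normalization and -4.01 with a pseudocount of 0.1. Over all genes, 5432 were lower and 501 higher. These counts became 2647 and 1256 with median-ratio rescaling and 1595 and 1563 with quantile normalization, and under the stricter filter, which tests 7536 genes, 3182 were lower. Leaving out each library in turn gave 2555 (without tamoxifen 2) to 5531 (without vehicle 1) lower and 263 to 500 higher, with 3545 and 270 without vehicle 2 and 3030 and 279 without tamoxifen 1. Among the other Fc receptors, 1 was lower with median-ratio rescaling, 0 after quantile normalization and under the stricter filter, and 1 to 3 with a library left out (1 without vehicle 2, tamoxifen 1 or tamoxifen 2). After quantile normalization the lower calls were 13 for other C-type lectins, 24 for Syk and CARD9 signaling, 16 for inhibitory receptors and phosphatases and 4 for immunoglobulin genes. Under the stricter filter they were 7 for other ITAM-coupled receptors, 9 for other C-type lectins, 15 for inhibitory receptors and phosphatases and 5 for immunoglobulin genes, since fewer genes were tested. The cause of the other differences was not tested. The activating to inhibitory ratio differed by 1.3 on the log2 scale, and by 0.95 to 1.78 with a library left out. With the replicate number as a block, 5863 genes were lower and 573 higher. The same-numbered libraries deviated together only weakly over the genes (r = 0.28), and with 2 pairs the numbers were not taken to pair them. FPKM near 1 rests on few fragments and limits Clec4d, Clec4e and Fcgr1 most.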
